A study of Mus musculus with 4 samples.

Results

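Villus tip enterocytes of the mouse small intestine were studied here, taken as the cell barcodes that carried the messages of a small set of tip genes. A barcode was a member if at least 3 of Ada, Nt5e, Slc28a2, Clca4a, Slc23a4 and Enpp3 were detected with 1 or more unique molecular identifiers (UMIs, each standing for 1 captured mRNA molecule), and fewer than 3 of the ileal genes Slc10a2, Abi3bp, Slc13a1, Tmigd1, Trpm6 and Slc25a48. Members also had to have at least 1000 UMIs, at least 500 genes and under 30% of their UMIs from mitochondrial DNA. The rule found 2652 members among 32872 barcodes that passed those filters. They numbered 333 of 4533 in wild type 1, 299 of 11503 in mutant 1, 1268 of 8189 in wild type 2 and 752 of 8647 in mutant 2. Values are given below in that order of libraries wherever 4 are listed. No member barcode was shared between any pair of libraries, although 11 to 31 filtered barcodes were.

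The study compared wild type mice with mice that carry TrnA G5081A, a point mutation of mitochondrial DNA in the gene for the alanine transfer RNA, at a labelled load of 77% in mutant 1 and 81% in mutant 2. All 4 libraries came from the small intestine at an age of 25 weeks. Intestinal cells were released with EDTA and TrypLE, stained for CD45, CD31, TER-119, CD326 and DAPI, sorted, and made into 10x 3′ libraries. The series title speaks of acute colitis, but the labels of these libraries name no colitis treatment. Wild type 1 and mutant 1 form set A, whose titles give no sex and which were counted with Cell Ranger 7.0.0. Wild type 2 and mutant 2 form set B, titled as male and counted with Cell Ranger 7.1.0. The labels do not say whether each library is 1 animal or a pool, so the tests below measure the spread between these libraries, which may be technical. With 2 libraries per genotype an exact permutation test cannot give a p below 0.333.

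Enterocytes are born in crypts, climb the villus over several days and are shed at its tip. On the way they change their programme in zones, from antimicrobial genes near the base through amino acid and sugar uptake in the middle to lipoproteins, cell adhesion and purine handling at the tip. Nt5e, the surface enzyme also known as CD73, turns AMP outside the cell into adenosine. Ada deaminates adenosine to inosine, and Slc28a2 carries purine nucleosides into the cell. Enpp3 splits extracellular nucleotides, Slc23a4 belongs to a family of nucleobase and ascorbate carriers, and Clca4a is a member of the family once described as calcium-activated chloride channel regulators.

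In the GRCm38 annotation Ada lies at chr2:163726584-163750239 on the minus strand and Slc28a2 at chr2:122426477-122461137 on the plus strand. Nt5e lies at chr9:88327197-88372092, Clca4a at chr3:144952480-144975045, Slc23a4 at chr6:34945278-34988404 and Enpp3 at chr10:24772406-24842823. The 250 bases upstream of the RefSeq starts of Ada and Slc28a2 are shown because both genes act on the same nucleosides and were found in the same cells, while their upstream sequences differ in kind. They are written 5′ to 3′ on the gene's strand, with capitals for matches on either strand to GGGCGG, the core of a GC box bound by factors of the Sp family. Matches to AGATAA, which fits the motif of GATA factors, are in capitals as well. The Ada stretch is chr2:163750240-163750489 on the minus strand and the Slc28a2 stretch is chr2:122426185-122426434 on the plus strand, both in GRCm38.p6.
Ada: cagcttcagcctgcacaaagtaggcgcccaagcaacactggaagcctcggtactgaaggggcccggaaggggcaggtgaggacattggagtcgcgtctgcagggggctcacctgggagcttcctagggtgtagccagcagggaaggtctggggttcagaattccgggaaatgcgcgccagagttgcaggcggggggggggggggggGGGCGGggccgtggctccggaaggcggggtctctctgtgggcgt
Slc28a2: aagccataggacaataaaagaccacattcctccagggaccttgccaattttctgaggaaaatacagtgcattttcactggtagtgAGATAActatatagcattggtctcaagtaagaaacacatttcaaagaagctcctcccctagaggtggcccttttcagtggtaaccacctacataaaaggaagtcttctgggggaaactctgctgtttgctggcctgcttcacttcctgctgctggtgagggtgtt
The Ada stretch is 67.2% G and C and holds 1 GC box, which starts 44 bases before the gene start, at the end of a run of G. The Slc28a2 stretch is 45.2% G and C, with no GC box and 1 GATA motif that starts 165 bases before the RefSeq start. That start lies upstream of the annotated Slc28a2 start given above. The RefSeq windows of Nt5e, Slc23a4 and Enpp3 all lie inside the GENCODE M21 models of these genes, that of Nt5e with all of its 250 bases in exons, so they may not be the upstream sequence of every transcript. They are 72%, 46% and 36.8% G and C, against a median of 52.4% over all 32851 RefSeq promoters of that length. Nt5e has 4 matches to GGGCGG, some of which overlap, Slc23a4 has 1 and Enpp3 has none. A GC box occurs in 32.7% of all those promoters and AGATAA in 9.99%. Neither TGANTCA, the AP-1 motif, nor CAAAGTCCA, an HNF4 motif, occurs in any of the 5 windows (6.75% and 0.384% of all promoters hold them). No searched motif occurs in all 5 windows, and a match or its absence is a description of these letters alone.

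The members differed widely in how densely they carried the tip messages. Each barcode was thinned at random to 1000 UMIs and the rule was applied again. The 1336 members that still met it are called marker-rich here, a split chosen after the data were seen. They numbered 161, 156, 647 and 372, or 48.3%, 52.2%, 51% and 49.5% of members. Their median depth was 2941, 1784, 2176 and 2469.5 UMIs, and their median content of the 6 tip messages was 130.0, 108, 166 and 139 UMIs per 10000. The other 1316 members, called marker-poor, had median depths of 24272, 12135, 13991 and 16256 UMIs and carried only 3.4, 6.86, 6.42 and 4.46 tip UMIs per 10000. In every library the marker-rich members had the shallower barcodes and the denser tip messages, a density that the split itself favours.

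Marker-poor members were not of one kind. Of them, 836 had 10000 or more UMIs with median tip contents of 1.22, 3.01, 2.32 and 1.94 per 10000. The remaining 480 were shallow and carried 33.8, 17.9, 38.4 and 37.5 per 10000, and their densities overlapped the lower part of the marker-rich range. The marker-poor members were 11.6%, 39.9%, 20.6% and 24.7% predicted doublets, against 2.48%, 3.21%, 4.48% and 4.30% of marker-rich members. Messages of Paneth cells, the defensin-secreting cells of the crypt base, stood at 36080, 41997, 204381 and 240313 CPM in sum (UMIs scaled to a common library total) in marker-poor members. A minority of barcodes carried that sum, with 4, 8, 121 and 84 of them at a Paneth share of 5% or more. The median Paneth share per barcode was 0.211%, 0.262%, 0.475% and 0.618% in marker-poor and 0.436%, 0.99%, 0.673% and 0.983% in marker-rich members. Marker-poor barcodes held 86.5%, 83.8%, 86.4% and 86.9% of all UMIs of the members. A sum over all members is therefore mostly a sum over them, and the sections below give marker-rich members on their own.

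**Figure D1:**
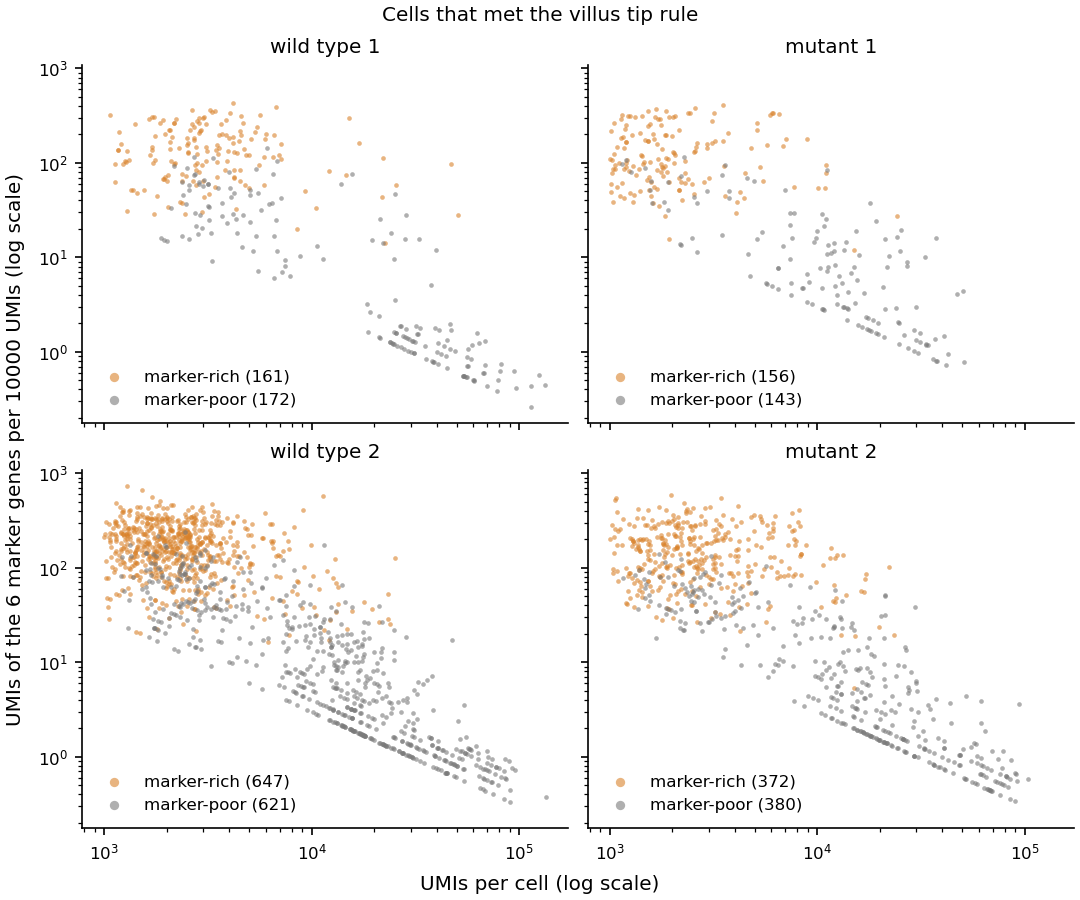
Each point is 1 member barcode in the panel of its library, placed by its UMIs (log axis) and by its UMIs of the 6 tip genes per 10000 UMIs (log axis), coloured by whether it still met the rule after thinning to 1000 UMIs. Marker-rich members form a mostly shallow group with library medians of 108 to 166 tip UMIs per 10000, shallow marker-poor members overlap its lower part, and deep marker-poor members lie far below it.

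The edge of the rule fell inside the marker-poor range. Barcodes with exactly 3 tip messages numbered 151, 133, 516 and 303 and had median tip contents of 2.38, 7.95, 10.7 and 5.5 UMIs per 10000. Just outside, barcodes with 2 messages numbered 556, 526, 1056 and 846 and had 0.947, 1.93, 1.97 and 1.70 per 10000. Barcodes with 4 messages had 68.0, 57.9, 72.4 and 49.1 per 10000, and those with all 6 had 199, 181, 252 and 244. The step between 3 and 4 messages was thus far larger than the step between 2 and 3. A further 43, 31, 71 and 83 barcodes had 3 or more tip messages and were left out for 3 or more ileal genes.

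The tip genes chose the members, so their levels are descriptions without a test. Other absorptive cells, also chosen after thinning to 1000 UMIs, served as a scale. Other enterocytes (215, 223, 602 and 951 barcodes after thinning) had at least 4 of 12 general enterocyte genes and failed the tip rule. Ileal enterocytes carried at least 3 of the ileal genes. Because the first class was chosen by genes such as Sis, Slc5a1 and Anpep, genes that go with those are favoured there. Ada reached 2539, 2977, 1832 and 2642 CPM in marker-rich members against 14.3, 3.12, 16.4 and 13.5 in other enterocytes. Slc28a2 stood at 2463, 2419, 2756 and 2551 CPM against 3.01, 4.16, 10.1 and 10.3. Nt5e stood at 996, 1292, 1009 and 1107 CPM against 2.26, 0, 1.72 and 3.57. The 0 of mutant 1 is a count of 0 UMIs among 961269, which allows a level of up to 3.12 CPM for Nt5e (3 counts, counting error only). These 3 purine genes were close to absent from other enterocytes in every library.

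Clca4a and Enpp3 had higher levels than these in other enterocytes. Clca4a had the most UMIs of the 6, at 4475, 4454, 6785 and 5135 CPM in marker-rich members and 76.8, 28.1, 172 and 90.4 in other enterocytes. Ileal enterocytes also carried it, at 876, 704, 1099 and 673 CPM. Enpp3 had 1712, 1673, 2338 and 2599 CPM in marker-rich members and still 219.9, 195, 264 and 284 in other enterocytes, but only 12.7, 15.6, 12.4 and 48.8 in ileal ones. Slc23a4 had 833, 730.1, 1015 and 740.3 CPM against 15.1, 4.16, 15.2 and 9.25. Among the ileal genes of the rule, Slc10a2, the ileal bile acid carrier, was low in marker-rich members at 9.51, 14.2, 10.8 and 5.17 CPM against 987, 1264, 1321 and 1168 in ileal enterocytes. Tmigd1, a membrane protein of epithelial cells, was present at 285, 222, 137 and 231 CPM, against 304, 234, 274 and 395 in other enterocytes.

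At an equal depth of 1000 UMIs per barcode, Ada was detected in 73.3, 76.9, 65.2 and 72.8% of marker-rich members and in 1.86, 0.897, 1.16 and 0.841% of other enterocytes. Slc28a2 was detected in 60.2, 64.7, 62 and 67.7% and 0.93, 1.35, 1.16 and 0.526%. The same draw of 1000 UMIs sorted the barcodes into these classes, so the gap between the shares follows largely from the rule. The part of free RNA in them was not tested. Median full depths were 2941, 1784, 2176 and 2469.5 UMIs in marker-rich members and 3577, 2127, 3562.5 and 3470 in other enterocytes. Pairs of tip messages met in the same barcodes. Ada and Nt5e were found together in 30.4%, 28.2%, 24.9% and 29.6% of marker-rich members, Ada and Slc28a2 in 47.8%, 53.8%, 45.1% and 51.3%, and Clca4a and Enpp3 in 71.4%, 68.6%, 84.9% and 83.1%. These pair shares follow in part from the rule, which asks for 3 messages at once.

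**Figure D2:**
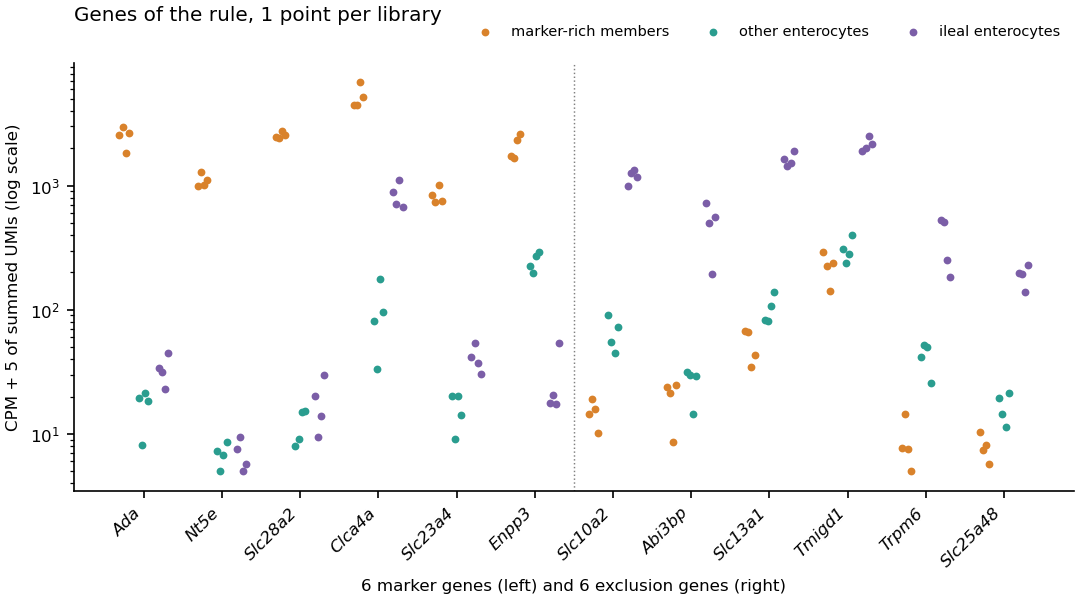
CPM plus 5 of summed counts (log axis) of the 6 tip genes (left of the dotted line) and the 6 ileal genes of the rule (right) in marker-rich members, other enterocytes and ileal enterocytes, with 1 point per library. Every library of marker-rich members lies above every library of the other classes for the 6 tip genes, which chose them, and Tmigd1 and Slc13a1 are the ileal genes that marker-rich members carry most.

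The genes that the rule did not use were then described, library by library, as the log2 ratio of CPM (with 5 added) in marker-rich members over other enterocytes. A gene was called higher or lower if it was so in all 4 libraries, with no test, since the cells were chosen by their own counts. Of 7797 genes, 1907 were higher (24.5%) and 2590 lower (33.2%), with a median log2 ratio of -0.10. Among all members at full depth the number higher was 2044 of 8386. Of 19 measured genes that are known to mark the tip but were not in the rule, 15 were higher and 1 was lower, with a median of 1.09. Of 13 lower villus genes, 2 were higher and 10 lower, with a median of -2.10.

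The widest separation outside the rule belonged to Ly6m, of the Ly6 family of surface proteins. It had 1549, 1939.8, 1102 and 1632 CPM in marker-rich members and 1.51, 9.36, 2.87 and 4.21 in other enterocytes, a log2 ratio of 7.40 ± 0.38 (SD over 4 libraries). Egfr, the epidermal growth factor receptor, had 431, 595, 489.5 and 465 CPM against 27.9, 30.2, 38.8 and 38.9, a ratio of 3.68 ± 0.30. Prdm1, a transcriptional repressor that is also needed in the immature gut epithelium, had 103, 146, 77.5 and 131 CPM against 10.5, 9.36, 5.75 and 6.73, a ratio of 3.17 ± 0.35. In each of these genes all 4 libraries of marker-rich members lay above all 4 of other enterocytes. Pmp22, a membrane protein of cell contacts, was higher by 3.26 ± 0.19. Krt20, the keratin of mature gut cells, was higher by 1.09 ± 0.10, Klf4, a factor of differentiated epithelium, by 1.32 ± 0.13, and Creb3l3, a regulator of lipoprotein genes, by 1.04 ± 0.18. The exception among tip genes was Maf, a transcription factor, which had 189, 196, 224 and 288 CPM in marker-rich members against 817, 782, 984 and 942, a ratio of -1.96 ± 0.19. Genes that marked lower villus cells went the other way. Reg3b, an antibacterial lectin, had 2589, 1812, 653 and 2709 CPM against 19245, 17639, 7677 and 13781, a ratio of -3.02 ± 0.52, and Il18, Nlrp6 and Pigr had ratios of -2.79, -2.26 and -1.44.

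Other parts of nucleotide handling were split. Of 18 measured genes, 4 were higher and 11 lower, beside 24.5% and 33.2% of all genes, with a median of -0.79. Nt5c2, a cytosolic nucleotidase, had 147, 144, 134 and 109 CPM against 8.28, 8.32, 5.75 and 10.7, a ratio of 3.39 ± 0.36. Entpd8, which removes phosphates from extracellular nucleotides before Nt5e can act, had 454, 439, 514 and 425 CPM against 206, 141, 169.9 and 154, a ratio of 1.43 ± 0.22. Ampd3, an AMP deaminase, and Nt5c3, another nucleotidase, were higher by 0.95 and 0.75. Those 4 higher genes all act on nucleotides, but their share of the list was near that of all genes, so no pattern by step is read from them. Genes of salvage and of the later steps of breakdown were among the lower ones: Adk, which returns adenosine to AMP, at -1.07, Aprt at -1.08, the guanine deaminase Gda at -1.32, and the pyrimidine enzymes Upp1 and Dpyd at -1.48 and -1.43. Slc28a1, the pyrimidine-preferring relative of Slc28a2, was lower at -1.31, and Xdh, the xanthine oxidase gene, had a mean ratio of 0.09.

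Digestion and uptake of sugars and peptides were low in marker-rich members. All 10 measured sugar genes not used in the choice were lower, with a median of -1.95. Slc2a5, the fructose carrier, had a ratio of -2.86, and Khk, the first enzyme of fructose breakdown, had -2.54. Of 16 peptide and amino acid genes, none was higher and 13 were lower, with a median of -1.33. Slc7a8, an amino acid exchanger, had -3.26 and the peptidases Enpep and Dpp4 had -2.43 and -1.93. The peptide carrier Slc15a1 stood near equality, at 818, 683, 819 and 757 CPM against 888, 752, 839.9 and 755. The comparison class was itself chosen by absorptive genes, and how far that choice sets these differences was not tested.

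Fat handling was not uniformly low. Of 27 genes, 7 were higher and 13 lower, with a median of -0.36. Apoa4, a lipoprotein of chylomicrons, had 4782, 8735, 7219.9 and 9286 CPM against 818, 1408, 3489 and 1831, a ratio of 2.14 ± 0.74. Apob, the structural protein of chylomicrons, was higher by 1.31 ± 0.12. Cidec, which enlarges lipid droplets, had 156, 113, 191 and 172 CPM against 32.4, 26, 44.8 and 32.8, a ratio of 2.06 ± 0.13. Fabp1, a fatty acid binding protein, had 848, 886, 484 and 1334 CPM against 2848, 7686, 11368 and 8316, and its ratio of -3.01 ± 1.17 varied widely by library. Mogat2, an enzyme of triglyceride synthesis, Mttp, which loads lipid onto Apob, and Abca1, a cholesterol exporter, had ratios of -1.55, -0.86 and -2.18.

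Junction and adhesion genes were higher in 17 of 22 and lower in 3, with a median of 0.64. Dsp, the desmosomal plaque protein, had 543, 539, 625 and 609 CPM against 164, 163, 189 and 174, a ratio of 1.72 ± 0.04. Cdh1, the cadherin of epithelial contacts, and Ocln, a tight junction protein, were higher by 1.60 and 1.40. Cldn4, a sealing claudin that was named because its ratio was among the highest, had 360.0, 295, 214 and 249 CPM against 3.01, 2.08, 4.02 and 2.73, a ratio of 5.14 ± 0.41. Cldn15, a pore-forming claudin, was lower at -1.14. Of 12 genes of the EGF receptor pathway, 7 were higher and 2 lower, with a median of 0.55. Hbegf, a ligand of the receptor, had 345, 170.1, 251 and 239 CPM against 103, 43.7, 36.5 and 38.1, a ratio of 2.17 ± 0.46. The feedback inhibitors Errfi1 and Dusp6 were higher by 1.45 and 1.54, whereas the ligands Areg and Ereg were lower at -0.83 and -1.76.

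Immediate early genes, which respond quickly to growth factors and stress, were higher in 14 of 16 and lower in none, with a median of 1.25. Atf3 had 258, 170.1, 119 and 174 CPM against 21.8, 18.7, 8.62 and 13.7, a ratio of 3.16 ± 0.19. Jun had 796, 766, 396 and 589.7 CPM against 197, 111, 85.1 and 81.8, a ratio of 2.41 ± 0.40, and Klf6 was higher by 1.65 ± 0.07. Of 11 heat shock chaperones 5 were higher and 2 lower. Brush border genes divided evenly, with 9 of 21 higher and 7 lower and a median of -0.02. Plec, a linker of keratins, was higher by 1.19 and Ezr by 0.33, while Vil1 and Myo1a, core proteins of microvilli, were lower at -0.60 and -0.88. Of 21 genes of cell death and shedding, 8 were higher and 8 lower. Casp8 and Pmaip1 were higher by 0.60 and 1.14, and Casp6 was lower at -2.24.

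Nuclear genes of oxidative phosphorylation were low together. All 36 measured subunits of complex I were lower, with a median of -0.94, and so were 37 of 38 subunits of complexes II to V, with a median of -1.07. Cox5a, of cytochrome oxidase, had 508, 695, 390.4 and 653 CPM against 992, 1545, 1358 and 1197, a ratio of -1.19 ± 0.41. Ppargc1a, the coactivator of mitochondrial biogenesis, had 44.8, 59.1, 68.7 and 64.9 CPM against 350.1, 409, 401 and 497, a ratio of -2.71 ± 0.18. Of 25 genes of fatty acid oxidation, none was higher and 22 were lower, with a median of -0.89. The 13 messages encoded in mitochondrial DNA did not follow. Only mt-Co1 was higher, by 0.31, and mt-Nd1, mt-Nd2, mt-Nd3 and mt-Cytb were lower, with a median of -0.21 over the 13. The median share of mitochondrial UMIs was 9.25%, 11%, 18.1% and 15.5% in marker-rich members and 13.3%, 12.4%, 16.3% and 17.6% in other enterocytes at this depth.

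Messages of other cell types were present and are a limit of these ratios. Goblet markers, mucus genes such as Muc2, were higher in all 7 measured, with 22875, 10127, 9089 and 3340 CPM in sum in marker-rich members and 3617, 2880, 1732 and 1944 in other enterocytes. In 54 marker-rich members the messages of another cell type passed a set share of UMIs. Without those 54 barcodes 4 of 7 goblet markers were still higher, all 36 complex I subunits and all 38 of complexes II to V were still lower, and 16 of the 19 other tip genes were higher. Paneth markers were 3241, 7126, 8504 and 11154 CPM in sum in marker-rich members and 2498, 4582, 4905 and 9325 in other enterocytes. Of the 8 Paneth markers 6 were higher, with a median of 0.54, and all 8 without the 54 barcodes. Cycling markers were higher in all 7 measured, with a median of 1.33, and in 5 of 6 without the 54. Stem cell markers were higher in 4 of 7 and lower in 1, with a median of 1.32, and 4 of 5 were higher without the 54. The part of these cells' RNA in the ratios above was not tested. Stromal and endothelial markers reached 2, 1, 1 and 8 UMIs, and the 8 lymphocyte markers 12, 99, 115 and 8 UMIs.

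**Figure D3:**
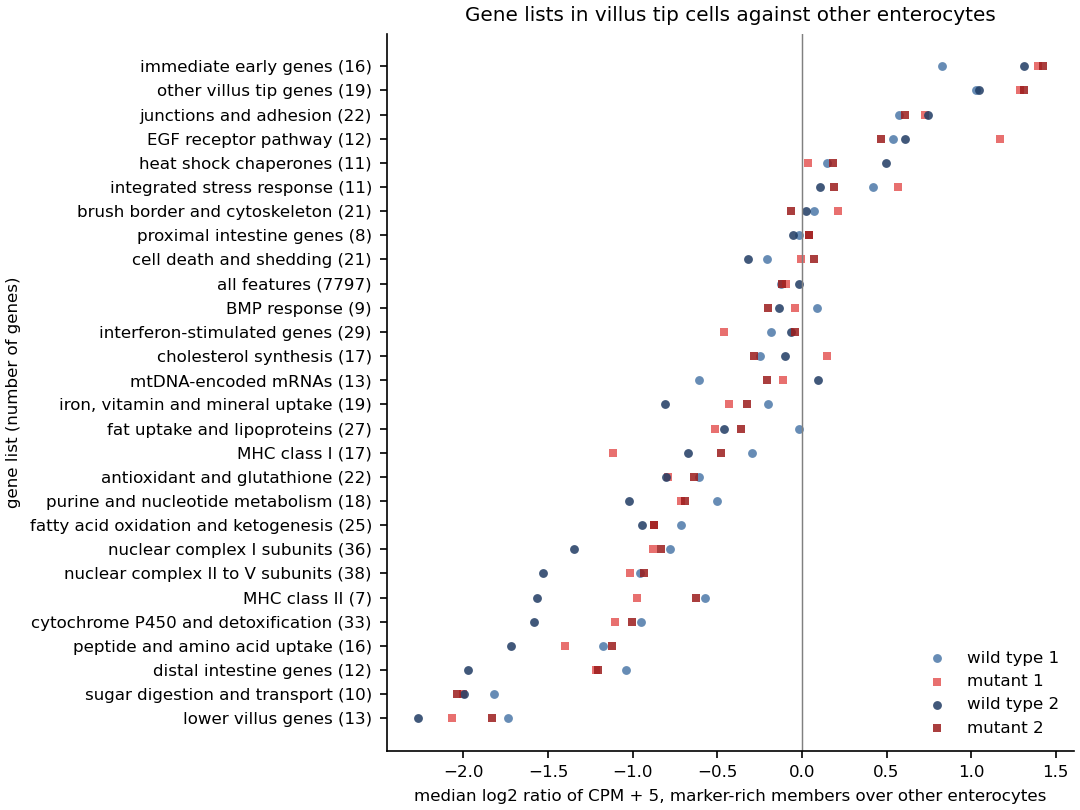
For each gene list (number of measured genes in brackets), the points give the median log2 ratio of CPM plus 5 of marker-rich members over other enterocytes in each of the 4 libraries, with lists sorted by level. Immediate early and other tip genes lie above 0 in every library, and sugar, peptide and nuclear respiratory chain genes below. The messages of mitochondrial DNA lie on both sides of 0.

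Marker-rich members also differed among themselves. They were grouped by how many of the 6 tip messages were left at 1000 UMIs, from 3 to 6, with 57, 49, 33 and 22 barcodes in wild type 1 and 235, 170, 151 and 91 in wild type 2. Depth was similar across these groups, with medians of 2778 to 3090 UMIs in wild type 1 and 1962 to 2391 in wild type 2. Between members with 6 and with 3 messages, 729 of 8341 genes were higher in all 4 libraries (8.74%) and 2532 lower (30.4%), with a median log2 ratio of -0.50. Of 19 other tip genes 10 were higher and 1 lower, with a median of 0.65. Of 36 complex I subunits none was higher and 30 were lower, with a median of -1.20, and of 38 subunits of complexes II to V 34 were lower, with -1.11. Lower villus genes were lower in 10 of 13, with -1.50, and sugar genes in 8 of 14, with -1.27. These lists kept the direction they had against other enterocytes, but others did not. Heat shock chaperones had a median of -0.88 here, stem cell markers -1.78, cycling markers -1.61 and goblet markers -1.68, against positive medians there. Fat genes had 0.13 here and a negative median there. The groups were set by the rule's own genes, so these values are a description.

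Single genes moved in steps. Averaged over libraries, Ly6m had 596, 1201, 2334 and 4196 CPM in members with 3, 4, 5 and 6 messages, and Egfr had 248, 427, 759.7 and 1038. Nt5c2 had 71.7, 119.9, 209.9 and 259 and Muc3, a membrane mucin of the brush border, had 1029, 1618, 2199.8 and 2874. All 4 climbed at each step. Sis, the sucrase of the brush border, went down with 705, 378, 203 and 77.5, and Ppargc1a with 88.8, 51.4, 33.6 and 19.3. The mitochondrial message mt-Co1 had 23609, 25059, 26962 and 24404 and showed no such steps. Cycling markers were lower in all 7 measured, goblet markers in 6 of 8 and stem cell markers in 5 of 7, beside 30.4% of all genes. Paneth markers differed from these, with 1 of 8 higher, none lower and a median of -0.08. No tuft, enteroendocrine or lymphocyte marker was lower in all 4 libraries. Whether RNA of other cell types accounts for part of the gradient was not tested.

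Members made up 7.35%, 2.60%, 15.5% and 8.70% of filtered barcodes, with exact Clopper-Pearson 95% intervals of 6.60% to 8.14%, 2.32% to 2.91%, 14.7% to 16.3% and 8.11% to 9.31%. Such intervals reflect the counting of barcodes and nothing else. The mean was 11.4% ± 5.75 (SD, n = 2) in wild type and 5.65% ± 4.31 (SD, n = 2) in mutants, and the difference of -5.77 percentage points had an exact two-sided permutation p of 0.667. The mutant share was lower in both sets, by 4.75 points for set A and 6.79 for set B, but the share of mutant 2 lay above that of wild type 1, so the groups overlapped. As a share of all enterocytes, members were 21.9%, 15%, 34.7% and 19.4%. Here both mutants lay below both wild types, at 17.2% ± 3.12 against 28.3% ± 9.03 (SD, n = 2 each), with an exact permutation p of 0.333, the smallest this design allows. A sort for epithelial cells and the depth of each library can set such shares, and their part was not tested.

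At equal depth the order within sets held. After thinning to 1000 UMIs, 3.84%, 1.40%, 8.11% and 4.52% of barcodes still met the rule, and after thinning to 5000 UMIs, among barcodes that deep, 1.70%, 0.777%, 3.59% and 2.34%. As shares of enterocytes the values were 31.9%, 28.9%, 49.4% and 24.7% at 1000 UMIs and 17.3%, 11.4%, 18.7% and 11.5% at 5000. The mutant was the lower of its pair at 1000, 3000 and 5000 UMIs. Members of the 4 libraries had median depths of 4497, 3531, 3275 and 4606 UMIs and 1744, 1544, 1394.5 and 1709.5 genes, which overlapped between genotypes. Their median mitochondrial share of UMIs was 5.33%, 6.73%, 11.2% and 9.39%, higher in set B than in set A and with an exact permutation p of 1.0 between genotypes.

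**Figure D4:**
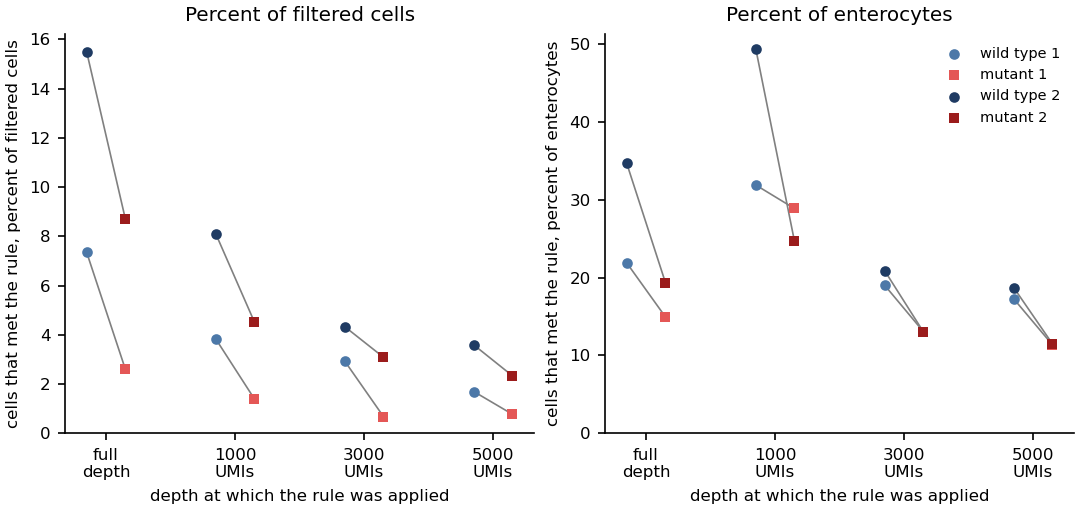
Percent of filtered barcodes (left) and of enterocytes (right) that met the tip rule at full depth and after thinning to 1000, 3000 and 5000 UMIs, with 1 point per library and lines joining the wild type and mutant of a set. The mutant lies below its wild type in both sets at each depth, while on the left mutant 2 lies above wild type 1.

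Genotypes were first compared on the summed counts of all members (5454548, 2608586, 14261619 and 10338819 UMIs), with edgeR's quasi-likelihood test over 12178 genes. Without a term for the set no gene passed a Benjamini-Hochberg adjusted p of 0.05 (0%), 100 had an unadjusted p under that value, and DESeq2 also called 0. With the set as a block 54 genes passed (0.443%), 40 higher in mutants (0.328%) and 14 lower (0.115%), and 48 of these had the same sign in both sets. DESeq2 with the same block called 7. The blocked fit leaves 1 residual degree of freedom and takes its estimate of spread from all genes. A gene's own spread between libraries therefore does not enter its p here. All values in the next paragraphs come from the blocked fit, with CPM scaled by edgeR's TMM factors.

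The strongest call was Acta1, the actin of skeletal muscle, with 24, 35, 92 and 699 UMIs, or 3.6, 11.3, 7.22 and 88.3 CPM. It rose by 3.08 ± 0.24 (log2 ± SE, adjusted p = 1.53e-32 in edgeR's test), by 1.65 for set A and 3.61 for set B. Without the block its SE was 0.80 and it was not called. The high library was mutant 2, in which 145 barcodes carried it. Other enterocytes chosen at 1000 UMIs showed the same order, with 12, 65.5, 27.9 and 88.9 CPM. Among the gene lists, interferon-stimulated genes held the most calls, and 7 of 33 rose. Of the 33, 19 were higher in the mutant of both sets and none was lower in both, against 24.6% and 22.4% of all genes. Their median log2 ratio was 0.59 (0.20 for set A and 0.96 for set B), against a median of 0 over all genes. Isg15, a ubiquitin-like protein, had 20.2, 32.4, 11.8 and 39.4 CPM and rose by 1.25 ± 0.20 (adjusted p = 1.01e-06). Ifit1bl1 had 12.7, 22, 8.55 and 39.9 CPM and rose by 1.61 ± 0.22 (adjusted p = 1.52e-09). Oasl2 had 22.6, 37.6, 21.3 and 47.1 CPM and rose by 0.96 ± 0.19 (adjusted p = 0.000246). In all 3 genes both mutant libraries lay above both wild types in these sums over all members. In marker-rich members without other cell types none of the 3 was called. There Isg15 had log2 differences of 0.05 for set A and 1.79 for set B. Ifit1bl1 had 0.43 and 2.20, and Oasl2 had 0.52 and 1.31. Further interferon-induced genes among the 54, Usp18, Rsad2, Ddx60 and Rnf213, rose by 1.44, 1.30, 0.81 and 0.77. Of 20 MHC class I genes 2 rose, H2-M2 and Nlrc5, a transactivator of that class. In that list 4 genes were higher and 1 lower in both sets, beside 24.6% and 22.4% of all genes. Its medians went opposite ways, at -0.23 for set A and 0.71 for set B.

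Sprr2a3, a small proline-rich protein of stressed epithelium, had 17.4, 28.8, 9.57 and 35.7 CPM and rose by 1.37 ± 0.21 (adjusted p = 2.06e-07). Prdm1 and Ly6m, both dense in marker-rich members, were among the smaller calls. Prdm1 had 13.3, 26.6, 14.4 and 26.3 CPM and rose by 0.92 ± 0.22 (adjusted p = 0.00735). Ly6m had 207, 349.7, 184 and 310.3 CPM and rose by 0.76 ± 0.19 (adjusted p = 0.0186). Apoc2, the cofactor of lipoprotein lipase, had 183, 377, 482 and 743 CPM and rose by 0.83 ± 0.20 (adjusted p = 0.00842). In Prdm1 the 4 libraries fell into mutants above wild types, whereas Apoc2 of wild type 2 lay above mutant 1. Of the 19 other tip genes 1 rose, Prdm1, and 13 were higher in both sets, with a median of 0.18, beside 24.6% of all genes. These sums are mostly of marker-poor barcodes. In marker-rich members without other cell types 6 of the 19 were higher in both sets and none lower, beside 26.3% of all genes higher. Their medians there were -0.09 for set A and 0.40 for set B. The rule's own genes chose the members and are given without a test. Ada had 338, 489, 328 and 521 CPM and Nt5e had 116, 204, 166 and 206 CPM.

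Of 12 heat shock chaperones 1 fell and 9 were lower in both sets, with a median of -0.32. Hsph1, a cochaperone of the Hsp70 system, had 30.1, 17.2, 68.8 and 32.6 CPM and fell, with a log2 ratio of -0.98 ± 0.19 (adjusted p = 0.000234). Set B had the higher levels in both genotypes. In marker-poor members all 10 chaperones compared across classes were lower in both sets, and in marker-rich members without other cell types 4 were lower and 2 higher, with medians of -0.04 for set A and -0.13 for set B. Complex I subunits were not called, with 12 of 36 higher and 1 lower in both sets and a median of 0.04, nor were the 38 subunits of complexes II to V, with 13 and 0 and a median of 0.06. Defensin genes of Paneth cells were among the 54 as well: Defa34, Defa20 and Defa5 rose by 1.25, 0.95 and 0.87. Defa34 had 1237, 1488, 20204 and 27578 UMIs over all members. Marker-rich members without other cell types held 26, 33, 70 and 108 of these, and there none of these defensin genes was called. Hormone genes also made up part of the 54, and single barcodes weighed in them. One barcode of wild type 2 held 1270 of 1348 UMIs of Gcg, the glucagon precursor gene, and 1 barcode of wild type 1 held 2481 of 3429 UMIs of Gip. Pyy, another gut hormone, had a log2 ratio of 1.22 ± 0.20 over all members and changed direction without predicted doublets.

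In marker-rich members the comparison called fewer genes. The blocked fit over 7523 genes called 17 (0.226%), of which 2 rose, Acta1 and Mmp7, and 15 fell. The 15 were mostly genes of enteroendocrine and goblet cells, among them Scg2, Gcg, Chgb, Cck, Pyy, Clca1, Fcgbp, Zg16 and Muc2. After the 54 barcodes with messages of other cell types were left out, 154, 149, 622 and 357 remained, with 592751, 356745, 1689013 and 1172762 UMIs in 6799 tested genes. None of these genes passed in the blocked fit (0%), with 379 at an unadjusted p under 0.05, or in the fit without the block, with 181. With 1 library left out and no block, the fit called 14 genes when wild type 1 was dropped and 9 when wild type 2 was. Dropping mutant 1 gave 8 called genes, and dropping mutant 2 gave 2. DESeq2 also called 0 with and without the block, with 52 and 56 unadjusted. With all 4 libraries a difference between genotypes in these members was not detectable for any single gene, which does not show that levels were alike.

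The values behind that result were as follows. Sprr2a3 had 39.8, 112, 31.6 and 124 CPM, with log2 differences of 1.48 for set A and 1.96 for set B and an adjusted p of 0.485, and its mutant libraries lay above both wild types. Acta1 had 13.3, 18.6, 26.3 and 288 CPM, high only in mutant 2. Foxo1, a transcription factor held in check by insulin signalling, had 158, 82.6, 284 and 164 CPM, with differences of -0.92 and -0.78. Of the tip genes, Ada had 2514, 3199.5, 2016 and 3203 CPM, with 0.35 and 0.67, and Slc23a4 had 934, 781, 1101 and 894, with -0.26 and -0.30. Clca4a had 4988, 4702, 7417 and 6122 CPM and Enpp3 1973, 1748, 2559 and 3116, and both were higher in set B in each genotype. Among the 6 tip genes 2 were higher in the mutant of both sets and 2 lower. Apoa4 had 5102, 9348, 7896 and 11231 CPM, with 0.87 and 0.51 and an adjusted p of 0.877.

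Across lists in these barcodes, 26.3% of all genes were higher in the mutant of both sets and 25.5% lower. Of 36 complex I subunits 19 were higher and none lower, with medians of 0.15 for set A and 0.44 for set B. Of 38 subunits of complexes II to V 25 were higher and none lower, with 0.10 and 0.47. Cox5a had 516, 671, 357 and 682 CPM, with differences of 0.38 and 0.93. The same subunits in other enterocytes had set A medians of 0.38 and 0.29 and set B medians of -0.16 and -0.14, with 1 and 2 higher in both sets and 4 and 6 lower. In the filtered barcodes that were no members, 22 and 19 were higher in both sets and none lower, with set A medians of 0.08 and 0.06 and set B medians of 0.13 and 0.15. No subunit passed the test in marker-rich members, and the lists' difference between classes was not tested.

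Interferon-stimulated genes were higher in both sets in 13 of 26 and lower in 1, with medians of 0.06 for set A and 1.18 for set B. The same 26 genes in other enterocytes were higher in 17 and lower in none, with 0.39 and 1.06. In ileal enterocytes 10 were higher and 1 lower, with -0.15 and 1.10. In filtered barcodes that were no members only 3 were higher and none lower, with -0.26 and 1.14, where 26.1% of all genes were higher. The rise of this list was thus not shared by set A in every class. All 8 Paneth markers were higher in both sets, with medians of 1.04 and 0.85, and all 8 were so in other enterocytes as well, with 0.83 and 1.10. Defa22, a defensin of Paneth cells, had 706, 1439, 963 and 1965 CPM in the marker-rich members. The part of free RNA in these Paneth messages was not tested.

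The mutation lies in mitochondrial DNA, so the messenger RNAs it encodes are given for the same barcodes. Of the 13, 5 were higher and 1 lower in the mutant of both sets, with medians of 0.20 for set A and 0.00 for set B. The message mt-Cytb had 6981, 8821, 10856 and 13137 CPM, with 0.34 and 0.28, and mt-Nd1 had 4928, 5672, 7758 and 9717, with 0.20 and 0.32. Levels of both were higher in set B, whose wild type lay above the mutant of set A. The message mt-Co1 had 22100.3, 18571, 35071 and 32441 CPM and was lower in both mutants than in the wild type of their set. The mutated transfer RNA itself is not captured as a message by this assay.

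**Figure D5:**
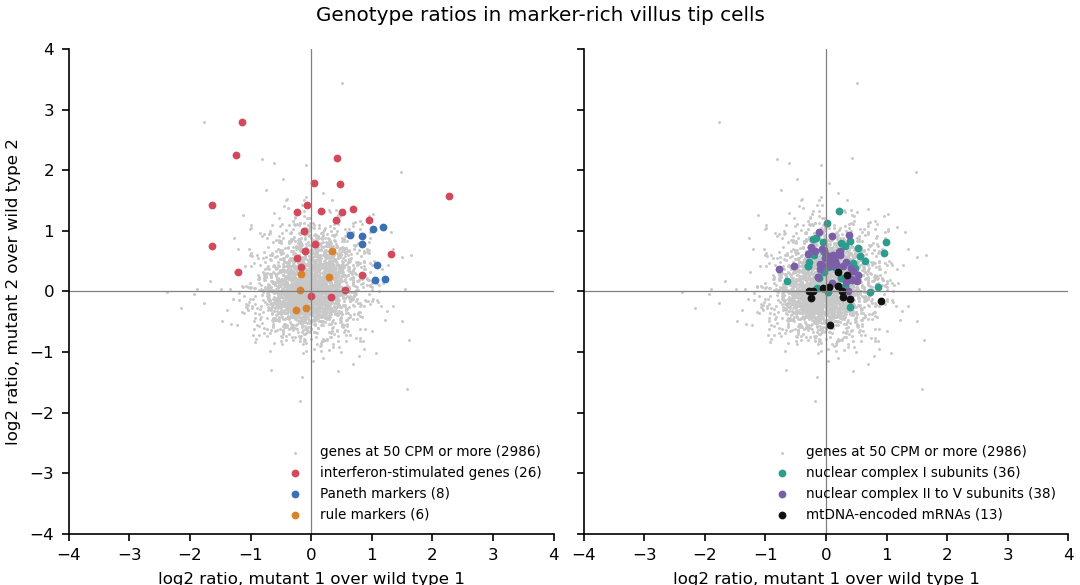
Genes of marker-rich members without barcodes of other cell types, placed by the log2 ratio of mutant over wild type in set A (horizontal) and in set B (vertical), with all genes of at least 50 mean CPM in grey and gene lists in colour in both panels. Paneth markers lie above 0 on both axes, interferon-stimulated genes mostly above 0 on the vertical axis and on both sides of 0 on the horizontal one, and most respiratory chain subunits above 0 on the vertical axis.

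Whether the genotype difference was particular to members was tested as an interaction of genotype with class (all members against other enterocytes). Of 13924 genes 1 was called (0.00718%), which was Gzma, a protease of cytotoxic lymphocytes, with a log2 difference of differences of -4.44 ± 0.33 (SE) and an adjusted p of 0.00749 in edgeR's test. Its counts were 300, 29, 111 and 114 UMIs in members and 31, 106, 12 and 428 in other enterocytes, high in wild type 1 among members and in mutant 2 among other enterocytes. With predicted doublets left out no gene was called, with 278 at an unadjusted p under 0.05. With the block 13 genes were called over all members. In marker-rich members without other cell types the unblocked fit called 0, and the blocked fit called 1, Sprr2a3, at 1.93 (adjusted p = 0.00052 in edgeR's test). This blocked fit also took its spread from all genes, and without the block the adjusted p was 0.082. Sprr2a3 had 39.5, 115, 31.2 and 112 CPM in these members. In other enterocytes it had 29.6, 55.9, 54.9 and 33.3 CPM, higher in the mutant of set A and lower in that of set B.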

How the data were processed

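The deposited values are raw UMI counts of each gene in each barcode. Per the file headers they were produced by Cell Ranger, version 7.0.0 for set A and 7.1.0 for set B, and per the submitters' processing notes on mm10. Intron counting and cell calling were not given in the sources used here. Members were found on the counts as deposited. Members, gene lists and tests were chosen with earlier results of these data known, and the marker-rich split after the data were seen. To thin a barcode, UMIs were drawn without replacement, and shallower barcodes were left out. Predicted doublets were the barcodes with the highest Scrublet scores (scanpy 1.11.5), at 0.8% per 1000 barcodes of a library. They were kept except where stated. A barcode was counted as rich in another cell type if the markers of that type made up at least 0.5% of UMIs (5% for goblet and Paneth cells). Counts were summed per library and class, filtered and TMM-scaled, and tested with edgeR 4.0.16 (quasi-likelihood, Benjamini-Hochberg adjustment over all genes tested, threshold 0.05). DESeq2 1.42.0 was an alternative. Replicate numbers were given in accession order and pair nothing, so the set served as the replicate block. Descriptive log2 ratios used CPM with 5 added and genes of at least 10 CPM in either class. Genes named for a ratio between classes had at least 50 CPM in a class and the largest smallest ratio over the 4 libraries. Genes named for genotype had the smallest p, the same sign in both sets and at least 10 CPM, and other named genes belong to the lists. Fits were tested on simulated counts. Coordinates are from GENCODE M21 (GRCm38), and upstream sequences from RefSeq, GRCm38.p6, in which 5 of the 6 tip genes were found.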

Additional observations from a re-analysis of the deposited data

Results flagged for a closer look

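Barcodes left out for 30% or more mitochondrial UMIs also met the tip marker rule. Set A held 55 (wild type) and 57 (mutant) and set B 595 (wild type) and 262 (mutant), or 9%, 6.74%, 23.9% and 12.9% of the barcodes left out for that reason. They were flagged because they are a signal in barcodes that no comparison used. Their median content of tip messages was 59.9, 62.3, 82.3 and 61.8 UMIs per 10000, between the marker-poor and the marker-rich members, at median depths of 3620, 1901, 2259 and 2475 UMIs. The share of such barcodes was again lower in the mutant of each set, and this difference was not tested.

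Gzma was flagged because its genotype difference in members and in other enterocytes differed by -4.44 on the log2 scale in the test of that difference. Gzma belongs to lymphocytes, and its call was lost without predicted doublets.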

How the results depend on the processing

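Both shares of members were lower in mutants under each alternative, between -9.84 and -1.70 points of filtered barcodes and between -17.5 and -4.73 points of enterocytes when 1 library was left out. The number of genes higher in members than in other enterocytes in every library, 2044, stayed between 1706 and 2528. Differences in library medians were small against their spread and changed sign. The UMI difference of 182.5 became -640 without predicted doublets, -227.75 with at least 4 markers and -431.75 in marker-rich members, and ran from -428.5 to 793.5 with 1 library left out. The difference of 57.5 genes became -168.5, -49.75 and -140 in the same 3 settings and -11.5 at 3000 UMIs, with -117.25 to 232.25 when 1 library was left out. The mitochondrial difference of -0.205 points became 0.325 without doublets and ran from -3.14 to 2.73.

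The number of genes called in members depended on the replicate block. It was 0 without it, 54 with it, and with the block 57 without doublets, 15 with at least 2 markers, 18 with at least 4, 57 under 15% mitochondrial UMIs, 89 regardless of the ileal genes, 20 after thinning to 3000 UMIs and 17 in marker-rich members. It was 7 by DESeq2 with the block, 28 without the low count filter, 1 in marker-rich members without the block, and 0 to 2 with 1 library left out. The interaction of genotype and class called 1 gene, 13 with the block, 2 and 62 with at least 6 enterocyte genes (without and with it), 0 and 57 without doublets, 8 and 14 at 1000 UMIs, 0 at 1000 UMIs without other cell types and without the block, 4 by DESeq2 and 61 without the filter. The cause of these shifts was not tested. No pairing of libraries beyond the set could be used, since the labels give no replicate numbers. Of the named genes, Pyy moved from 1.22 to -0.17 without doublets, -0.68 with at least 2 markers, -2.24 at 3000 UMIs, -3.84 in marker-rich members and -0.55 without other cell types, and Nts from -1.09 to 1.09 with at least 4 markers, all with the block. Of their other alternatives 67 kept the call and 94 lost it with the same direction. With 2 libraries per genotype, differences well within their spread could not be seen.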

Other observations

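Set against ileal enterocytes rather than other enterocytes, marker-rich members had a different profile. The ileal class was chosen by the ileal genes that members lack, so ileal genes are given as description, and no test was made. Of 7824 genes, 1106 were higher in all 4 libraries (14.1%) and 1944 lower (24.8%), with a median log2 ratio of -0.14. Cholesterol synthesis was low in members, with none of 20 genes higher and 19 lower and a median of -1.70. Hmgcs1, an early enzyme of that pathway, had 89.7, 156, 67.1 and 62.7 CPM in marker-rich members and 484, 518, 534 and 561 in ileal enterocytes, and Sqle, a later one, had 21.7, 23.6, 12.4 and 14.8 against 131, 151, 157 and 145. Against other enterocytes the same list had 3 of 17 genes higher and 6 lower, with a median of -0.19, so the gap there was small.

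All 13 messages of mitochondrial DNA were higher in marker-rich members than in ileal enterocytes, with a median of 1.36. Of 36 complex I subunits 7 were lower and none higher, beside 24.8% of all genes lower. Their library medians were 0.12, -0.003, -1.32 and -0.44. The low level of these subunits against other enterocytes was thus not seen in every library against ileal ones. The message mt-Co1 had 19864, 18545, 33269 and 27257 CPM against 8277, 9180.0, 10114 and 10709.6, with no overlap. Fat genes were higher in 15 of 27 and lower in 3. Apoa4 had 4782, 8735, 7219.9 and 9286 CPM in marker-rich members and 73.6, 124, 114 and 167 in ileal enterocytes, a log2 ratio of 5.92 ± 0.13 (SD over 4 libraries). The other tip genes were higher in 15 of 19 here too, with a median of 0.89. Egfr had 431, 595, 489.5 and 465 CPM against 88.8, 84.4, 65.8 and 84.9. MHC class II genes were lower in 5 of 7 against both enterocyte classes and higher in none.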
